A study of Mus musculus with 6 samples.

Results

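The NF-kB genes studied here are the 5 subunits (Rela, Nfkb1, Nfkb2, Rel and Relb) and 5 regulators of the IkB and A20 type (Nfkbia, Nfkbie, Tnfaip3, Nfkbiz and Bcl3). They were chosen by gene symbol, and all 10 had a row among the 25965 rows of the count table. RNA sequencing counted their transcripts in 6 mouse cell lines positive for BCR-ABL, the fusion kinase of the Philadelphia chromosome. KO1, KO2 and KO3 are Cdk6 knock out lines, electroporated with pSpCas9(BB)-2A-GFP(px458)-hCDK6del, which carries guide RNAs against CDK6, and WT1, WT2 and WT3 are Cdk6 wild type lines that had received the control plasmid pSpCas9(BB)-2A-GFP(px458). GFP positive cells were sorted and plated singly, so a line is 1 clone, and loss of CDK6 had been checked by Western blot per the labels. All lines grew in the same RPMI medium with serum and 2-mercaptoethanol, without a further agent. The labels give no mouse strain and do not say whether the lines share a founder culture, so p-values here measure the spread between these 6 lines.

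NF-kB is a family of dimeric transcription factors. RELA, REL and RELB carry activation domains, whereas the products of Nfkb1 and Nfkb2 are precursors that are processed to p50 and p52. Inhibitors such as IkB alpha (Nfkbia) hold the dimers in the cytoplasm until the IKK kinases mark them for destruction. Nfkbia, Nfkbie and Tnfaip3 are themselves transcribed by NF-kB and so form feedback loops, and Nfkb2, Rel and Relb are known targets as well. In B cell precursors NF-kB is known to act downstream of the pre-B cell receptor and to support survival and light chain rearrangement.

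Because these genes are known to respond to the factor that they encode or restrain, their promoters were searched for the kB consensus, a motif of 10 letters with G at one end and C at the other. RefSeq windows of 300 bases (GRCm38.p6, 250 bases before to 50 after an annotated start site) were found for 7 of the 10 genes. Nfkb1, Relb and Nfkbiz had none in the table used. The following 4 are shown 5′ to 3′ on the strand of the gene, with each match to the consensus on either strand in capitals. They are shown for 3 genes with matches and 1 without. Of the genes with matches, Nfkb2, Nfkbia, Nfkbie and Rel were highest in line KO2, as described further on, and Tnfaip3 was highest in KO1. Bcl3, with a match, had 0 to 6 counts per library, too few to rank the lines. Rela, without a match, was highest in WT3, and Nfkb1 and Relb, without a window, were highest in KO2. Whether the matches bear on the levels was not tested.
Nfkb2, chr19:46304487-46304786, plus strand: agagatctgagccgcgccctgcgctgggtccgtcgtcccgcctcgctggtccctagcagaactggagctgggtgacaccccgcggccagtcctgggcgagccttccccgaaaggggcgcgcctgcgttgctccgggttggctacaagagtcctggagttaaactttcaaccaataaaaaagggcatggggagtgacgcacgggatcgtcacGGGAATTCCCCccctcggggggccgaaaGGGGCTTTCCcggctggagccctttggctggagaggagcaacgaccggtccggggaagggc
Nfkbia, chr12:55492598-55492897, minus strand: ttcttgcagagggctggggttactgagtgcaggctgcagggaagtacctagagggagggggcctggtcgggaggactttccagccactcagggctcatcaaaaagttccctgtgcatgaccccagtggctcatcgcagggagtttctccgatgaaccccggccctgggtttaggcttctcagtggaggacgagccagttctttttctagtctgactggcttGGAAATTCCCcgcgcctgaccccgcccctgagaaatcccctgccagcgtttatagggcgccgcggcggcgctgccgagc
Nfkbie, chr17:45555450-45555749, plus strand: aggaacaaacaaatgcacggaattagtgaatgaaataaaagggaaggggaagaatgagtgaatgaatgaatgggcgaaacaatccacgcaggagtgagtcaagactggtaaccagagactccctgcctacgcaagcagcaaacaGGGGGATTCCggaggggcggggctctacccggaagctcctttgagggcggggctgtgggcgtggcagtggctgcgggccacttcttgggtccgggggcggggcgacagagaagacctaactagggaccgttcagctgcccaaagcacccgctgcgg
Rela, chr19:5637291-5637590, plus strand: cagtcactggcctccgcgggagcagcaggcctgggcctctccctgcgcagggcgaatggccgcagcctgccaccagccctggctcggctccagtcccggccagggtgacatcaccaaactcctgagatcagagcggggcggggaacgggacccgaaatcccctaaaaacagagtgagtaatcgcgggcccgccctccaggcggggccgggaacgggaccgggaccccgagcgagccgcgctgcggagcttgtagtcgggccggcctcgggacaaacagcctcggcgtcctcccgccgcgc

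Each match is written here in the letters of the strand of the gene, also where it is a match on the opposite strand. The Nfkb2 window held GGGAATTCCC, a match on both strands, overlapped by GGAATTCCCC, a match on the opposite strand. It then held GGGGCTTTCC starting 11 bases before the start site. The Nfkbia window held GGAAATTCCC, a match on the opposite strand, 29 bases before the start site, and the Nfkbie window held GGGGGATTCC 106 bases before it. The Rela window held no match. Among the genes whose windows are not shown, Rel had GGGAAATCCC, a match on both strands, with an overlapping match on the opposite strand. Bcl3 had GGGAAGTCCC, a match on the opposite strand. The window of Tnfaip3 nearest to its annotated 5′ end had GGGACACCCC and also GGAAATCCCC, the latter a match on the opposite strand. A pair of further Nfkb2 windows downstream share 1 GGGACTTTCC, and the first of them also held GGAATGTCCC, a match on the opposite strand. In all, 6 of the 7 genes with a window had at least 1 match. Of all 32851 windows 4.51% had one, and 6.33% of the 7773 tested genes with a window did. A match is a description of the letters and shows no binding in these lines.

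**Figure D1:**
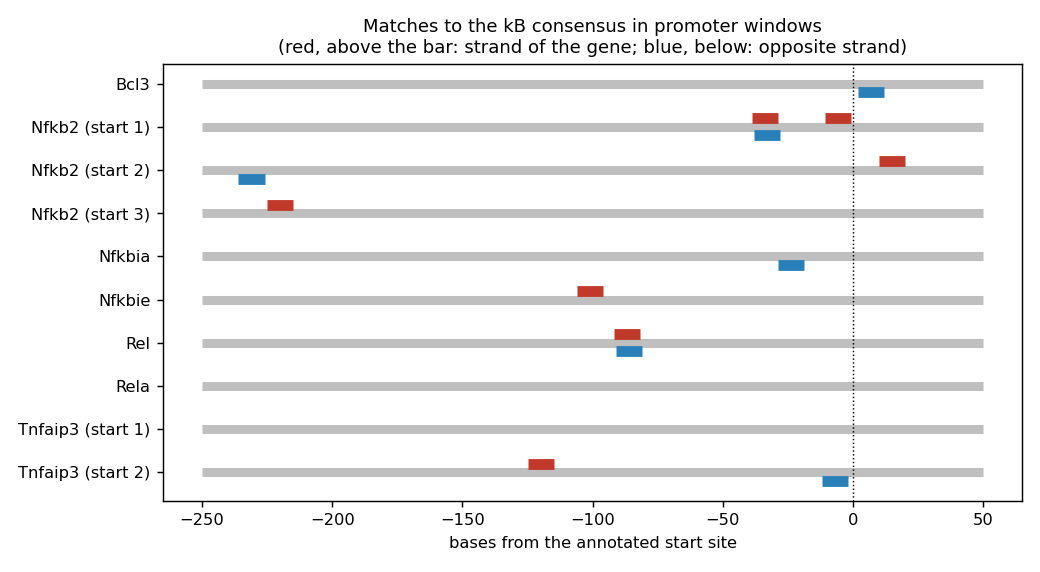
Each grey bar is a promoter window from 250 bases before to 50 bases after an annotated start site (dotted line, position 0), with matches to the kB consensus on the strand of the gene (red, above the bar) and on the opposite strand (blue, below). Start sites of a gene are numbered by position along the chromosome; 6 of the 7 genes have a match, and Rela has none.

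The libraries held between 17859519 (KO1) and 24108563 (WT1) counts. Levels are given as CPM, counts per 1000000 after TMM scaling (a correction for differences in library composition), and 3 counts corresponded to between 0.125 and 0.165 CPM. KO2 stood apart from the other 5 libraries. On the first principal component of log2 CPM, with 67.9% of the variance, its score was 112.5, that of WT2 was 12.6, and those of the other 4 libraries ran between -38.4 and -28.3. The targeted transcript, Cdk6, lay at 41.3, 75.2 and 39.0 CPM for KO1, KO2 and KO3 and at 39.7, 45.7 and 55.9 CPM for WT1, WT2 and WT3, with overlapping groups (log2 fold change of KO over WT 0.14 ± 0.29, SE, n = 3 each; edgeR adjusted p = 0.9) and a value of -0.22 ± 0.15 without KO2. KO and WT therefore name the libraries as labelled. All 14 markers of B cell precursors exceeded 1 CPM in at least 1 library, with summed levels of 4919 to 5836 CPM for KO and 5125 to 5338 CPM in WT. The sum was lowest in KO2, where single markers differed in direction, with Igll1 at its lowest (652 CPM) and Vpreb2 at its highest (253.6 CPM). Among markers of other lineages Cd3e, Cd4, Cd8a, Ly6g, Elane, S100a8, S100a9, Ms4a1, Fcer2a, Col1a2 and Col3a1 were at 0 in all 6 libraries, while others were detected, among them Cr2 at 35.1 to 131.0 CPM in KO and 55.2 to 78.3 CPM in WT, Klrb1c at 9.88 to 80.5 CPM in KO and 14.0 to 22.0 CPM in WT, and Lyz2 at 12.2 to 15.9 CPM in KO and 27.2 to 38.9 CPM in WT. These 3 detected markers were picked for their values, and DESeq2 called Lyz2 lower in KO (adjusted p = 1.1e-05; edgeR adjusted p = 0.479).

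Of the 10 genes, 9 passed the filter on low counts and were tested for KO against WT, and none passed edgeR's quasi-likelihood test at an adjusted p of 0.05. Among all genes tested 0 of 10896 genes (0%) passed. Without the adjustment 1030 genes (9.45%) had a p under 0.05, of which 474 (4.35% of genes tested) were higher and 556 (5.1%) lower in KO. Among the NF-kB genes 3 of 9 did: Nfkbie and Nfkb2 were higher in KO and Nfkbiz was lower. With 1 library left out that count ran from 0 (without WT1, and without WT2) over 1 (without WT3) to 5 (without KO2). It was 3 without KO1, and 2 without KO3, in limma-voom, without robust estimates and with the replicate block. The count over all genes moved as well. It was 472 of 11188 without WT1, 573 of 11053 without WT2 and 408 of 11189 without WT3. Leaving out KO1, KO2 or KO3 gave 1234 of 11198, 2080 of 11043 (18.8%) and 954 of 11180. DESeq2 called 218 of 11212 genes (1.94%) and none of the 10, and limma-voom called 0 genes (0%), with 1041 (9.55%) at an unadjusted p under 0.05. Every KO library exceeded every WT library for Nfkb2 and Nfkbie, 2 of 9, against 8.54% of genes tested, and below them for Nfkbiz, 1 of 9, against 11%. Scaling by library totals alone moved this background to 10.5% above and 8.67% below. Put otherwise, the share of separated genes that were higher in KO was 43.7% with TMM and 54.9% with library totals. The median log2 fold change of the 9 genes was 0.28, against 0.01 over all genes tested, and it was -0.11 without KO2.

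**Figure D2:**
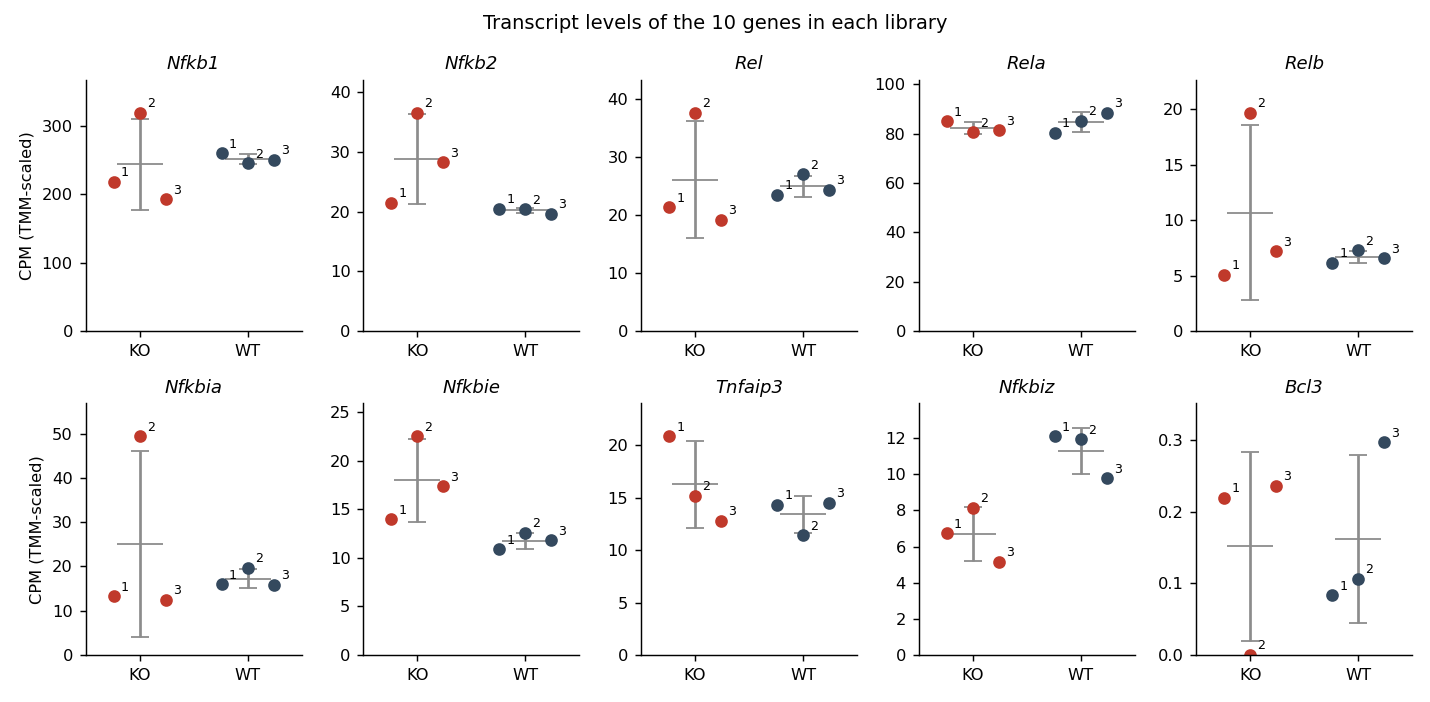
Each panel gives the level of 1 gene in CPM on a linear axis from 0, with 1 point per library numbered by replicate (KO red, WT blue), and grey lines for the mean and SD of 3 libraries. Point 2 of KO is the highest point of 6 panels (Nfkb1, Nfkb2, Rel, Relb, Nfkbia, Nfkbie), and KO and WT do not overlap for Nfkb2, Nfkbie and Nfkbiz.

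Rela encodes p65, the partner in the most common NF-kB dimer, and is a gene of chromosome 19 (5637483 to 5648130, plus strand, GENCODE annotation of GRCm38). It lay at 85.0, 80.6 and 81.4 CPM for KO1, KO2 and KO3 and at 80.4, 85.3 and 88.5 CPM for WT1, WT2 and WT3. The groups overlapped and every library was within a narrow band. Its fold change on the log2 scale was -0.04 ± 0.07 (SE, n = 3 each; 95% interval -0.21 to 0.12; edgeR adjusted p = 0.87), the narrowest interval of the 9 tested genes. Rela was also the tested NF-kB gene with the smallest range over the 6 libraries, 0.14 on the log2 scale, against 0.72 for Nfkb1 and 1.98 for Nfkbia.

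Nfkb1, the gene of p105 and p50 (chromosome 3, 135584655 to 135691547, minus strand), varied with KO2 at the top. It lay at 218.5, 319.3 and 193.1 CPM for KO1, KO2 and KO3, against 259.5, 245.4 and 250.1 CPM for WT1, WT2 and WT3. KO2 was the highest library and KO1 and KO3 were the lowest, so that the group means were close, at 243.6 ± 66.7 CPM for KO and 251.7 ± 7.16 CPM in WT (SD, n = 3). Its log2 fold change was -0.05 ± 0.19 (SE; edgeR adjusted p = 0.957). Without KO2 it was -0.28 ± 0.07 (edgeR unadjusted p = 0.00886, adjusted p = 0.194), and DESeq2 then called it lower in KO (-0.29 ± 0.08, adjusted p = 0.0198), which it did not without both WT2 and KO2. DESeq2 without KO2 called 684 of 11496 genes (5.95%), while edgeR without KO2 called 0 of 11043 (0%), with 2080 (18.8%) at an unadjusted p under 0.05.

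Nfkb2 encodes p100, which is both an IkB-like inhibitor and the precursor of p52 in the non-canonical pathway (chromosome 19, 46304320 to 46312385, plus strand). It lay at 21.5, 36.6 and 28.3 CPM for KO1, KO2 and KO3 and at 20.5, 20.4 and 19.7 CPM for WT1, WT2 and WT3. The WT lines were nearly equal, and each KO line was above them, KO1 by the least. The means were 28.8 ± 7.57 CPM for KO and 20.2 ± 0.45 CPM in WT (SD, n = 3), with a log2 fold change of 0.51 ± 0.20 (SE; 95% interval 0.01 to 1.01; edgeR unadjusted p = 0.0483, adjusted p = 0.529). Without KO2 it was 0.31 ± 0.14 (adjusted p = 0.299). Exons of Nfkb2 share 531 bases with AC114539.1, a long non-coding RNA on the opposite strand with no row in the table, and 299 with Psd, also on the opposite strand, which had 4 to 23 counts per library. Reads in the shared bases cannot be told apart because the strand setting is not given.

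Rel encodes c-REL, a subunit most used by lymphoid cells (chromosome 11, 23736847 to 23770970, minus strand). Its levels were 21.4, 37.7 and 19.2 CPM for KO1, KO2 and KO3, against 23.6, 27.1 and 24.5 CPM for WT1, WT2 and WT3. As for Nfkb1, KO2 was above every WT line and KO1 and KO3 were below every WT line. The log2 fold change was 0.06 ± 0.28 over all libraries (SE, n = 3 each; edgeR adjusted p = 0.959) and -0.29 ± 0.11 without KO2 (adjusted p = 0.254).

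Relb encodes the activating partner of p52 (chromosome 7, 19606217 to 19629438, minus strand). It lay at 5.11, 19.7 and 7.24 CPM for KO1, KO2 and KO3 and at 6.18, 7.30 and 6.58 CPM for WT1, WT2 and WT3. KO2 was 3.04 times the mean of the other 5 libraries, which ran from 5.11 to 7.30 CPM. Accordingly the log2 fold change of 0.68 ± 0.53 had a wide interval, -0.62 to 1.98 (SE, n = 3 each; edgeR adjusted p = 0.707), and it was -0.11 ± 0.23 without KO2.

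Nfkbia encodes IkB alpha, the main cytoplasmic inhibitor, whose transcript is often read as a sign of recent NF-kB activity (chromosome 12, 55489410 to 55492647, minus strand). It lay at 13.2, 49.4 and 12.5 CPM for KO1, KO2 and KO3, against 15.9, 19.7 and 15.9 CPM for WT1, WT2 and WT3. KO2 was 3.20 times the mean of the other 5 libraries, while KO1 and KO3 were below all WT lines. On the log2 scale the fold change was thus 0.54 ± 0.58 (SE, n = 3 each; 95% interval -0.89 to 1.98; edgeR adjusted p = 0.793), and it turned to -0.41 ± 0.15 without KO2 (95% interval -0.77 to -0.05; adjusted p = 0.238).

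Nfkbie encodes IkB epsilon, an inhibitor that acts with delay and prefers RELA and c-REL dimers (chromosome 17, 45555703 to 45563169, plus strand). Its levels were 14.0, 22.5 and 17.4 CPM for KO1, KO2 and KO3 and 10.9, 12.6 and 11.8 CPM for WT1, WT2 and WT3. All KO lines were above all WT lines, with means of 17.98 ± 4.29 CPM for KO and 11.8 ± 0.84 CPM in WT (SD, n = 3). The log2 fold change of KO over WT was 0.61 ± 0.20 (SE; 95% interval 0.11 to 1.11; edgeR unadjusted p = 0.0247, adjusted p = 0.495). Without KO2 it stayed positive at 0.42 ± 0.15 (95% interval 0.05 to 0.80; adjusted p = 0.238), so Nfkbie and Nfkbia had opposite signs in the same 5 libraries.

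Tnfaip3 encodes A20, an enzyme that edits ubiquitin chains and dampens signalling to IKK (chromosome 10, 19000910 to 19015657, minus strand). It lay at 20.9, 15.2 and 12.8 CPM for KO1, KO2 and KO3, against 14.4, 11.4 and 14.6 CPM for WT1, WT2 and WT3. Here KO1, not KO2, was the highest library, and the groups overlapped. The log2 fold change was 0.28 ± 0.22 (SE, n = 3 each; edgeR adjusted p = 0.717), and 0.06 without KO1.

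Nfkbiz encodes IkB zeta, a nuclear member of the IkB family that works as a co-activator on a subset of targets (chromosome 16, 55811375 to 55838899, minus strand). It was the only one of the 10 genes with all KO lines below all WT lines, at 6.76, 8.16 and 5.15 CPM for KO1, KO2 and KO3 and 12.1, 11.9 and 9.80 CPM for WT1, WT2 and WT3. The means were 6.69 ± 1.505 CPM for KO and 11.3 ± 1.28 CPM in WT (SD, n = 3), and on the log2 scale the fold change was -0.75 ± 0.23 (SE; 95% interval -1.31 to -0.19; edgeR unadjusted p = 0.0169, adjusted p = 0.482; DESeq2 adjusted p = 0.143). Without KO2 it was -0.92 ± 0.20 (edgeR adjusted p = 0.194), and DESeq2 called it lower in KO (-0.92 ± 0.27, adjusted p = 0.0192). Without both WT2 and KO2 neither edgeR (adjusted p = 0.253) nor DESeq2 (adjusted p = 0.17) called it, with a log2 fold change of -0.87 in edgeR. Its sign was negative in each of the 17 other fits.

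Bcl3, the gene of another nuclear IkB protein that binds p50 and p52 homodimers (chromosome 7, 19808462 to 19822770, minus strand), was close to undetected. It had 4, 0 and 5 counts in KO1, KO2 and KO3 and 2, 2 and 6 counts in WT1, WT2 and WT3. It did not pass the filter on low counts, and a difference between groups was not detectable at this depth. The 0 in KO2 allows a level of up to 0.154 CPM.

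**Figure D3:**
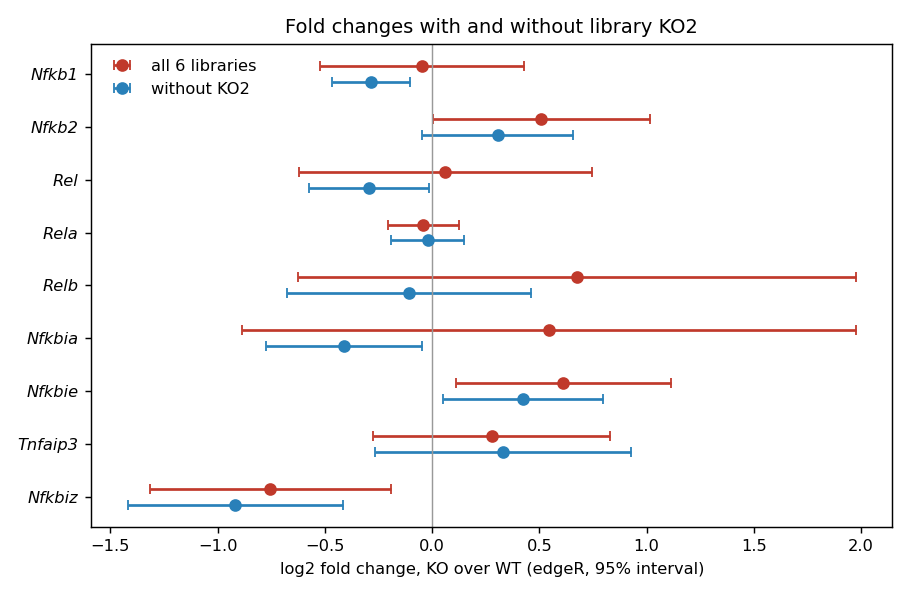
Points are log2 fold changes of KO over WT from edgeR with 95% intervals, over all 6 libraries (red) and without KO2 (blue); Bcl3 was not tested. Without KO2 the values of Rel, Relb and Nfkbia lie on the other side of 0, and Nfkbiz (-0.75 and -0.92) and Nfkbie (0.61 and 0.42) keep their side.

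The lines differed within the KO group in the same way for several genes. In KO2 6 of the 9 tested genes were at their highest level of all libraries (Nfkb1, Nfkb2, Rel, Relb, Nfkbia and Nfkbie), where 31.1% of all genes tested were, and for Relb and Nfkbia KO2 was at least 1.5 times the next library, as for 7.21% of genes. In KO1 and KO3 4 of the 9 (Nfkb1, Rel, Nfkbia and Nfkbiz) were below every WT line, as 21.9% of genes were, and 2 (Nfkb2 and Nfkbie) were above every WT line, as 19.8% were. These patterns were looked for after the values had been seen and carry no test. Marker lists of other cell types also stood apart in KO2. Of the 6 plasma cell markers 5 exceeded 1 CPM in at least 1 library, and the list summed to 176, 449.5 and 268.2 CPM for KO1, KO2 and KO3 and 198.0 to 282.0 CPM in WT, mostly through Xbp1, with Tnfrsf17 at 0 in every library. In the next list, of the 10 myeloid markers 5 exceeded 1 CPM, and the list summed to 43.6, 105.1 and 20.3 CPM for KO1, KO2 and KO3 and 41.5 to 46.9 CPM in WT, with Fcgr3 alone at 88.6 CPM in KO2 and Lyz2 below every WT line in each KO line. Of the 8 T and NK cell markers 1 exceeded 1 CPM, Klrb1c, with list sums of 26.4, 80.6 and 10.1 CPM for KO and 14.4 to 22.1 CPM in WT. The mature B cell markers, 3 of 6 above 1 CPM, summed to 132.9, 35.6 and 135.5 CPM for KO1, KO2 and KO3 and 58.4 to 81.0 CPM in WT, with Ms4a1 and Fcer2a at 0. KO2 was highest in 3 of these 4 lists and lowest in that of mature B cells, which was highest in KO3, and KO3 was lowest in the myeloid and the T and NK cell lists. Their part in the values of the NF-kB genes was not tested. In whole-culture RNA, a change in the number of cells of a type and a change in RNA per cell cannot be told apart.

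Levels of different genes were compared per kilobase of exon (CPM per kilobase, over the merged exons of GENCODE). Averaged over the 6 libraries, Rela (27.2) and Nfkb1 (20.5) led, followed by Nfkbia (13.1), Nfkb2 (5.34), Nfkbie (4.88), Rel (3.43), Relb (2.24), Tnfaip3 (2.06) and Nfkbiz (1.79), with Bcl3 at 0.06 CPM per kilobase. KO2 carried the mean of Relb, and over the WT lines alone the last tested genes ran in the reverse order, Nfkbiz at 2.25, Tnfaip3 at 1.86 and Relb at 1.72. Over the 6 libraries each gene in that order overlapped in range with the next, except Nfkbiz with Bcl3. Over the WT lines alone, Rela, Nfkb1, Nfkbia, Nfkb2 and Nfkbie did not overlap with one another.

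Shares of the summed subunit level need no scaling between libraries. Rela made up 50.6%, 37.1% and 49.9% in KO1, KO2 and KO3 and 46.0%, 47.8% and 49.0% in WT1, WT2 and WT3. Nfkb2 made up 8.57%, 11.3% and 11.6% in KO1, KO2 and KO3, against 7.87%, 7.67% and 7.31% in WT1, WT2 and WT3. The share of Nfkb2 was thus higher in every KO line, by 2.87 percentage points on average (10.5 ± 1.67% in KO and 7.62 ± 0.29% in WT, SD, n = 3). The two-sided exact permutation test gave p = 0.1, the smallest that 3 against 3 libraries allow, and 0.5 after adjustment over the 5 subunits. The shares of the other subunits overlapped between groups (exact permutation p = 0.4 to 1). Relb made up 7.16% in KO2, against 2.41% and 3.51% in KO1 and KO3 and 2.79% to 3.24% in WT.

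The summed level of the feedback inhibitors Nfkbia, Nfkbie and Tnfaip3 was set against that of the subunits. The ratio was 0.288, 0.567 and 0.287 in KO1, KO2 and KO3, against 0.272, 0.309 and 0.268 in WT1, WT2 and WT3. KO1 and KO3 lay within the WT range and KO2 above it. The difference on the log2 scale was 0.35 (two-sided exact permutation p = 0.5, smallest possible 0.1), and it was 0.03 without KO2. With counts not divided by exon length it was 0.42 (exact permutation p = 0.1). Between libraries of the same number the ratio was higher in KO in each of the 3 pairs, where an exact test gave p = 0.25, the smallest that 3 pairs allow. The labels do not state that same-numbered libraries are pairs, so this rests on an assumed pairing. The makeup of the inhibitors differed more between the lines: Nfkbia was 52.3%, 76.3% and 50.9% of their summed level in KO1, KO2 and KO3 and 62.6% to 68.1% in WT, and Nfkbie was 29.3%, 18.4% and 37.5% in KO and 23.0% to 24.6% in WT.

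**Figure D4:**
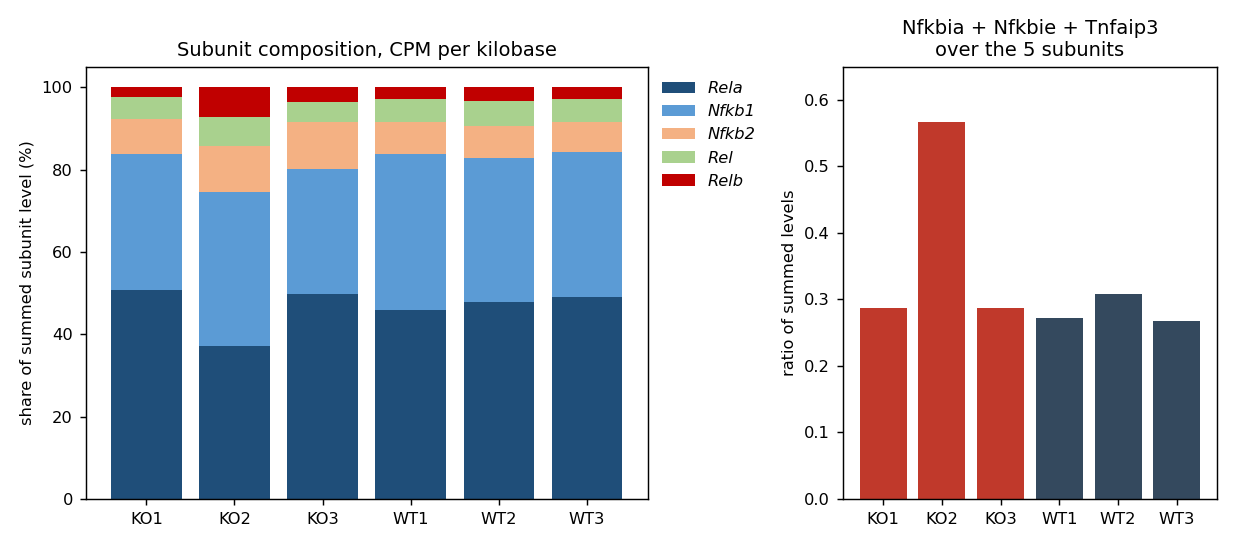
Left, share of each subunit in the summed CPM per kilobase of the 5 subunits in each library; right, ratio of the summed level of Nfkbia, Nfkbie and Tnfaip3 to that of the subunits (KO red, WT blue, axis from 0). In KO2 Rela holds 37.1% and Relb 7.16%, and the ratio is 0.567, against 0.268 to 0.309 in the other 5 libraries.

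Further genes of the pathway were described from lists of receptors, of kinases and adaptors, of other inhibitors and of known targets. None of the tested genes of these lists passed edgeR, against 0% of all genes. Up to 4 genes per list were named because they had its smallest unadjusted edgeR p. All KO lines were above all WT lines for 1 of 7 receptors, 1 of 25 kinases and adaptors and 1 of 15 targets tested. For these 3 lists no tested gene had all KO lines below. Among the 13 other inhibitors 2 were above and 2 below. Over all genes tested 19.5% did not overlap in either direction. Of the 13 receptors 7 were tested, 4 with a positive and 3 with a negative log2 fold change. Their median was 0.06, and it depended on the fit, from -0.05 without KO2 to 0.41 without WT2. Without KO1 it was 0.31 and without KO3 0.30, each over 7 receptors. The medians of 0.35 in DESeq2 and 0.34 without a filter cover 12 receptors. They include genes with few counts, such as Cd40 and Ltbr, so they are not medians of the same genes. Tlr4, the receptor for lipopolysaccharide, lay at 46.4, 45.3 and 66.2 CPM for KO1, KO2 and KO3 and at 42.9, 38.2 and 36.3 CPM for WT1, WT2 and WT3 (log2 fold change 0.43 ± 0.17 SE, n = 3 each; edgeR adjusted p = 0.532). Each KO line was above each WT line. Tnfrsf13b, the gene of TACI, was at 102.8, 250.8 and 98.2 CPM for KO1, KO2 and KO3, against 110.2, 156.4 and 111.7 CPM for WT1, WT2 and WT3. TACI, a receptor of the survival factor BAFF, was highest in KO2 and next in WT2, and its log2 fold change of 0.26 was -0.32 without KO2. Tlr7, a receptor for single-stranded RNA, was at 0.154 CPM (3 counts) in KO2, at 50.9 and 40.3 CPM for KO1 and KO3 and at 47.8 to 65.9 CPM in WT (-0.93 ± 1.34, and -0.34 ± 0.17 without KO2). Tlr2 was at 4.39 to 10.8 CPM for KO and 5.396 to 6.66 CPM in WT. Cd40 and Ltbr, receptors that feed both branches of the pathway, and Tnfrsf1a, a TNF receptor, did not exceed 0.22 CPM in any library, and Tnfrsf11a was at 8.01 CPM in KO2 and at or under 0.11 CPM in the others. These 4, Cd40, Ltbr, Tnfrsf1a and Tnfrsf11a, were picked once their values were known.

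All 25 kinases and adaptors were tested, with a median log2 fold change of 0.03, 17 positive and 8 negative. Ikbkb, the IKK subunit that phosphorylates IkB alpha, lay at 165.4, 213.2 and 150.1 CPM for KO1, KO2 and KO3 and at 142.5, 148.2 and 143.9 CPM for WT1, WT2 and WT3, above WT in each KO line (0.28 ± 0.14, edgeR adjusted p = 0.567; 0.13 ± 0.06 without KO2). Malt1, the protease of the signalling complex below antigen receptors, was at 61.5, 40.5 and 69.3 CPM for KO1, KO2 and KO3, against 93.4, 67.0 and 81.9 CPM for WT1, WT2 and WT3 (-0.50 ± 0.23, edgeR adjusted p = 0.555; -0.30 ± 0.15 without KO2), with an overlap between KO3 and WT2. Rnf31, the catalytic subunit of the linear ubiquitin ligase, and Traf6, a ubiquitin ligase below Toll-like receptors, had log2 fold changes of 0.22 ± 0.11 and -0.13 ± 0.07.

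Of the 13 other inhibitors, all tested, 7 lay on the positive and 6 on the negative side, and the median log2 fold change was 0.02. Nfkbib, the gene of IkB beta, was at 35.0, 38.9 and 31.5 CPM for KO1, KO2 and KO3 and at 39.9, 40.1 and 40.5 CPM for WT1, WT2 and WT3. The KO lines were below the WT lines, by little (-0.19 ± 0.10, edgeR adjusted p = 0.59). The table lists Otulin, which removes linear ubiquitin chains, as Fam105b, and it was at 39.4, 37.2 and 37.4 CPM for KO1, KO2 and KO3, against 46.3, 42.7 and 45.1 CPM for WT1, WT2 and WT3 (-0.23 ± 0.08, adjusted p = 0.495). Itch, a ubiquitin ligase that works with A20, and Zc3h12a, an RNase that degrades inflammatory transcripts, were above WT in each KO line (0.31 ± 0.12 and 0.31 ± 0.16), and Zc3h12a was at 0.20 ± 0.14 without KO2.

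Of the 29 target genes 15 passed the filter on low counts, 9 with a positive and 6 with a negative log2 fold change. Their median was 0.24 over all libraries, -0.23 without KO2 and 0.27 without both WT2 and KO2, over the list genes tested in each fit. Over all 6 libraries it was also negative in limma-voom (-0.17) and with the replicate block (-0.16), so its sign depended on the model. Cd69, an activation marker of lymphocytes, lay at 53.9, 203.5 and 121.2 CPM for KO1, KO2 and KO3, against 55.5, 61.1 and 57.3 CPM for WT1, WT2 and WT3. KO2 and KO3 were above the WT lines and KO1 was not (1.12 ± 0.46, edgeR adjusted p = 0.532; 0.60 ± 0.33 without KO2). Bcl2l1, the gene of the survival protein BCL-XL, was at 170.2, 266.2 and 194.0 CPM for KO1, KO2 and KO3 and at 134.1, 169.0 and 155.4 CPM for WT1, WT2 and WT3 (0.46 ± 0.19, edgeR adjusted p = 0.532; 0.26 ± 0.12 without KO2), with KO1 just above WT2. Birc3 (0.49 ± 0.25, and 0.18 ± 0.13 without KO2) and Cflar (0.50 ± 0.22, and 0.33 ± 0.18 without KO2), both inhibitors of caspase activation, had their highest level in KO2, at 43.4 and 31.3 CPM, while their WT lines ran from 20.3 to 25.0 CPM and from 16.2 to 19.4 CPM. Over all 6 libraries DESeq2 called 1 of the target genes, Cd86, a costimulatory ligand, named for that call after its values had been seen. It was at 0.33, 0 and 0.05 CPM for KO1, KO2 and KO3 and at 4.34, 0.43 and 5.74 CPM for WT1, WT2 and WT3. Without KO2, where DESeq2 called 5.95% of all genes, it called Cd86 (adjusted p = 0.0194), Ebi3 (0.0111) and Tnf (0.0411) lower in KO. Ebi3 had only 3 and 2 counts in KO1 and KO3, against 11, 157 and 35 in WT1, WT2 and WT3. DESeq2 then also called the receptor gene Tnfrsf13c (0.0397) and the adaptor gene Traf5 (0.0408) lower in KO. Of the WT lines both were highest in WT2, at 48.1 and 17.1 CPM. Their edgeR log2 fold changes were -1.42 and -1.34 without KO2, and -0.81 and -0.95 without both WT2 and KO2.

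**Figure D5:**
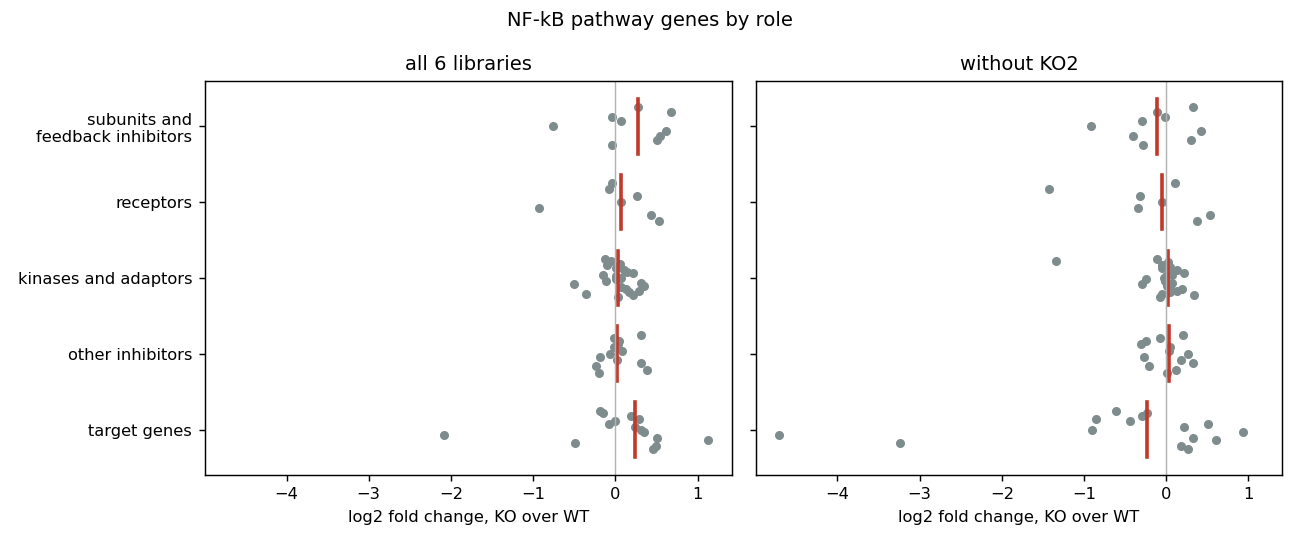
Each grey point is the log2 fold change of KO over WT of 1 tested gene from edgeR and each red line is the median of a list, over all 6 libraries (left) and without KO2 (right), on the same axis. The medians of the 9 tested subunit and inhibitor genes (0.28 and -0.11) and of the target genes (0.24 and -0.23) change sign between the panels; that of the kinases and adaptors stays near 0 (0.03 and 0.02).

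For the 2 genes with the widest range over the libraries, Nfkbia and Relb, the genes with the closest pattern were sought among 10895 others, by the root mean square difference of log2 CPM centred on each gene's mean over the 6 libraries. For Nfkbia these were Depdc7 (0.09), Rfk (0.11) and Dennd3 (0.12). For Relb they were Armcx6 (0.10), St6gal1 (0.12) and Stk38l (0.12). All 6 were highest in KO2, which follows from their choice by likeness to 2 genes that were highest there. St6gal1, for example, was at 102.0, 361.7 and 126.6 CPM for KO1, KO2 and KO3 and 107.8 to 154.0 CPM in WT. These values are a description of 6 libraries in which KO2 stands apart.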

How the data were processed

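RNA of 6 cell lines was sequenced from TruSeq libraries, per the labels' protocols. The authors deposited raw counts per gene symbol, 1 column per library. GRCm38, STAR, Trim Galore and DESeq2 are named, per the submitters' processing notes. The sources used here give no versions, counter, annotation or strand setting. Columns were matched to samples by title, and groups come from the labels. The genes and lists were chosen with earlier results of these data known.

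Counts were scaled by TMM and tested with edgeR 4.0.16 in R 4.3.3: genes kept by filterByExpr, a robust quasi-likelihood F test over all 6 libraries, two-sided, with Benjamini-Hochberg adjusted p under 0.05 over 10896 genes. SEs were derived from the F statistic. Shares and ratios used two-sided exact permutation tests. Named genes were the 10 genes, Cdk6, up to 4 per pathway list with the smallest p, and 3 nearest patterns for the 2 genes of widest range. Alternatives were RLE, library totals, DESeq2 1.42.0, limma-voom (limma 3.58.1), other filters, no robust estimation, a replicate block and left-out libraries. DESeq2 without KO2, and without WT2 and KO2, was added after the data had been seen. Log2 CPM used a prior count of 2. The fits were tested on simulated data. Of 136 list genes 3 had no row and 2 were found by an older symbol. Intervals and floors cover counting error or the spread between libraries only.

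Same-numbered libraries deviated together from their group means. The correlations across genes were 0.33, 0.64 and 0.46 for numbers 1, 2 and 3, above the criterion of 0.1. Numbers 1 and 3 passed it across numbers too, with 0.36 for KO1 with WT3 and 0.41 for KO3 with WT1. Pairs of a number 2 library with another number had correlations of -0.58 to -0.45. Deviations from a group mean cancel out within the group, so numbers 1 and 3 lean together where number 2 stands apart. The criterion therefore cannot show pairing by number. The labels state no shared culture. Replicates within a group differed by more than counting noise.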

Additional observations from a re-analysis of the deposited data

How the results depend on the processing

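The edgeR count of 0 genes held with RLE factors, library totals, either other filter, no robust estimates, limma-voom, the replicate block (985 genes at an unadjusted p under 0.05) and each left-out library; DESeq2 called 218 genes, 684 without KO2 and 340 without WT2 and KO2. None of the 10 NF-kB genes was called in any of these fits except in DESeq2 without KO2, which called 2, Nfkb1 (-0.29) and Nfkbiz (-0.92). With the replicate number as a block the median log2 fold change of the tested genes was 0.23, and the block changed no call. Their median ran from -0.11 (without KO2) to 0.42 (without KO3) when 1 library was left out, and it was -0.040 without WT2 and KO2, -0.064 in DESeq2 without KO2 and -0.029 in DESeq2 without WT2 and KO2. Nfkb2, Nfkbie, Tnfaip3, Rela and Nfkbiz kept their sign in all 17 alternatives.

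Signs turned as follows. Without 1 library the value of Rel ran from -0.29 (without KO2) to 0.24, that of Relb from -0.11 to 1.01, that of Nfkbia from -0.41 to 0.86 and that of Nfkb1 from -0.28 to 0.094 (0.03 without KO1 and 0.094 without KO3). Without WT2 and KO2 Rel was at -0.23, Relb at -0.040 and Nfkbia at -0.30. DESeq2 gave -0.30, -0.11 and -0.41 without KO2 and -0.24, -0.040 and -0.30 without WT2 and KO2 for Rel, Relb and Nfkbia. Rel was at -0.00028 in limma-voom and -0.0017 with the replicate block. In shares of the summed subunit level, KO minus WT in percentage points, Rel turned from -0.04 to 0.077 when counts were not divided by exon length and ran from -0.74 to 0.40 without 1 library (0.19 without WT2, 0.21 without KO1). Rela ran from -4.12 to 2.66 without 1 library and was at 2.77 without WT2 and KO2, and Relb ran from -0.014 to 2.36. A left-out library leaves 2 lines in a group, so these values rest on few lines; beyond that, the cause of each turn was not tested. Depth limits Bcl3, at 0 to 6 counts per library.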
